A study of Arabidopsis thaliana with 6 samples.

Results

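Transcripts of 3 Arabidopsis thaliana genes of methionine repair and glutathione chemistry are described here: MSRB6 (AT4G04840), a methionine sulfoxide reductase gene, and GSTU20 (AT1G78370) and GSTL3 (AT5G02790), both glutathione transferase genes. Each is read by the single probe set annotated to that gene alone, 255298_at, 260745_at and 250967_at, so the members are 3 probe sets of 22746 on the array after leaving out controls. The genes were chosen by their difference between the genotypes in these same arrays, together with their roles. Their differences are therefore descriptions without a test, and no p-value is given for them.

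RNA came from whole seedlings at 9 days of age, wild type (Col-0) or the myb3r1 myb3r4 double mutant in the Col-0 background, grown in continuous light on agar medium with 2% sucrose and given no treatment. Each of 3 experimental sets named in the labels held 1 array of each genotype, 6 arrays in all. The sources used here give neither the mutant alleles nor whether the sets were separate cultures, so SEs and p-values cover only how these samples spread, which may be technical. MYB3R1 and MYB3R4 encode transcription factors of the 3-repeat MYB family, which act in the control of mitotic and cytokinetic genes.

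Methionine in proteins is readily oxidised to its sulfoxide, which exists as S and R forms. MSRA enzymes reduce the S form and MSRB enzymes the R form, usually with electrons from thioredoxins. Glutathione transferases of the plant tau class join glutathione to reactive compounds, while those of the lambda class carry a cysteine at the active site and do not perform that conjugation. GSTU20 is also known as a partner of the jasmonate-conjugating enzyme FIN219 (JAR1) and is linked to aliphatic glucosinolates, sulfur-containing defence compounds.

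Levels below are log2 MAS5 signals over the median of their own array, so that 0 is the level of the middle probe set, and a level of one probe set cannot be set against that of another. A difference is mutant minus wild type on this log2 scale. Fitted differences and their SEs come from limma, blocked on the experimental set. Limma draws each SE partly from the spread of other probe sets, so it can be smaller or larger than a gene's own spread gives. The brightest 60% of probe sets, 13648, entered that fit, all 3 members among them, and a probe set was called at a Benjamini-Hochberg adjusted p under 0.05. Over all of them 72 were called, 0.528%, of which 53 were higher (0.388%) and 19 lower (0.139%) in the mutant. Without the division by array medians, the split was 41 higher and 33 lower. The median difference over all of them then shifted by -0.124, from 0.058 to -0.066. Precision is limited throughout by the number of arrays, 3 per genotype.

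The signal of control genes at their 3' minus that at their 5' end, a sign of RNA quality or labelling length, differed between arrays. In sets 1 to 3 it was 1.07, 3.04 and 3.22 for wild type and 1.50, 1.92 and 2.44 for the mutant, so that its difference was 0.44, -1.12 and -0.78. The mutations themselves could not be checked, since neither MYB3R1 nor MYB3R4 had a probe set of a single gene. Of 6 shoot and 8 root marker genes listed for whole seedlings, 3 (RCA, PRK and PSAE-1) and 2 (PYK10 and AT5G17820) had such a probe set. The summed shoot signal was 196 to 234 array medians in wild type and 233 to 296 in the mutant, and the summed root signal 51.8 to 84.9 and 55.5 to 96.1. The root sum is mostly PYK10, higher in the mutant in each set, by 0.23, 0.65 and 0.11. AT5G17820 had differences of -0.88, 0.76 and -0.30, a fitted value of -0.14 (SE 0.27), and levels of 0.55 to 2.52, the lowest of them close to the middle probe set. No marker had a level below 0. In RNA of whole seedlings, fewer cells of a type and less RNA per cell cannot be told apart.

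MSRB6 was higher in the mutant by about the same amount in each set. In sets 1 to 3 its wild-type level was 0.73, -0.63 and 0.30, and its mutant level 2.67, 1.25 and 2.00. All 3 mutant arrays lay above all 3 wild-type arrays, and in both genotypes set 1 was the highest and set 2 the lowest. The differences within sets 1 to 3 were 1.94, 1.89 and 1.70, or 3.84-fold, 3.70-fold and 3.25-fold. The wild-type signals were only 0.64 to 1.65 array medians, and without detection calls the folds over them are uncertain.

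Between genotypes the mean of MSRB6 went from 0.13 ± 0.70 to 1.97 ± 0.71 in the mutant (SD, n = 3 each), a fitted difference of 1.84 (SE 0.14) or 3.59-fold. The spread between sets was thus wide in both genotypes and was shared by the 2 arrays of a set: the SD of the within-set differences was 0.13. A smaller such SD was found for 17.1% of tested probe sets. The gap between the lowest mutant and the highest wild-type array was 0.53. Among the 13648 tested probe sets 6 had a larger difference. Over all other settings tried the MSRB6 difference lay between 1.72 and 1.91. It was 1.94, 1.89 and 1.70 in sets 1 to 3, where the control difference was 0.44, -1.12 and -0.78. With the control signal as a covariate in the fit it was 1.88. That fit leaves 1 residual degree of freedom, and the part of RNA quality in the MSRB6 difference was not tested. RCA, PRK and PSAE-1 were higher in the mutant in each set as well, by 0.42, 0.36 and 0.29 for RCA in sets 1 to 3, and their part in the MSRB6 difference was not tested.

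GSTU20 was higher in the mutant in each set, most in set 2 and least in set 1. Wild-type levels in sets 1 to 3 were 4.91, 4.15 and 4.83, and mutant levels 5.30, 5.34 and 5.38. The mutant arrays stood close together above all wild-type arrays, and the wild-type array of set 2 stood apart below the other two. The differences were 0.39, 1.18 and 0.55, or 1.31-fold, 2.27-fold and 1.46-fold.

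GSTU20 averaged 4.63 ± 0.42 over the wild-type arrays and 5.34 ± 0.042 over the mutant arrays (SD, n = 3 each). The fitted difference was 0.71 (SE 0.17), or 1.63-fold, and 2.81% of tested probe sets had a larger one. The SD between its within-set differences was 0.42. Without set 2 the difference was 0.47, without set 1 it was 0.87, and with the control signal as a covariate in the fit it was 0.50. The order of the GSTU20 differences over the sets, lowest in set 1 and highest in set 2, was the reverse of that of the control difference (0.44, -1.12 and -0.78). The covariate fit leaves 1 residual degree of freedom, and the part of RNA quality in the size of the GSTU20 difference was not tested.

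GSTL3 had no direction common to the sets. Its level over sets 1 to 3 was 4.64, 3.62 and 3.72 for wild type and 4.27, 4.33 and 4.21 for the mutant. The highest of all 6 arrays was the wild type of set 1, so the genotypes overlap. Set 1 gave a difference of -0.37, with wild type 1.29-fold above the mutant, and sets 2 and 3 gave 0.71 and 0.49, with the mutant 1.64-fold and 1.40-fold above wild type.

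GSTL3 averaged 3.99 ± 0.56 over the wild-type and 4.27 ± 0.063 over the mutant arrays (SD, n = 3 each). The fitted difference of 0.28 (SE 0.21), or 1.21-fold, was smaller than the SD of 0.57 between its within-set differences. It was 0.60 without set 1, 0.059 without set 2 and 0.17 without set 3. With the control signal as a covariate in the fit it turned to -0.064 (SE 0.14). As for GSTU20, the GSTL3 difference was lowest in set 1 and highest in set 2, the reverse order of the control difference. The part of RNA quality in the GSTL3 difference was not tested.

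**Figure D1:**
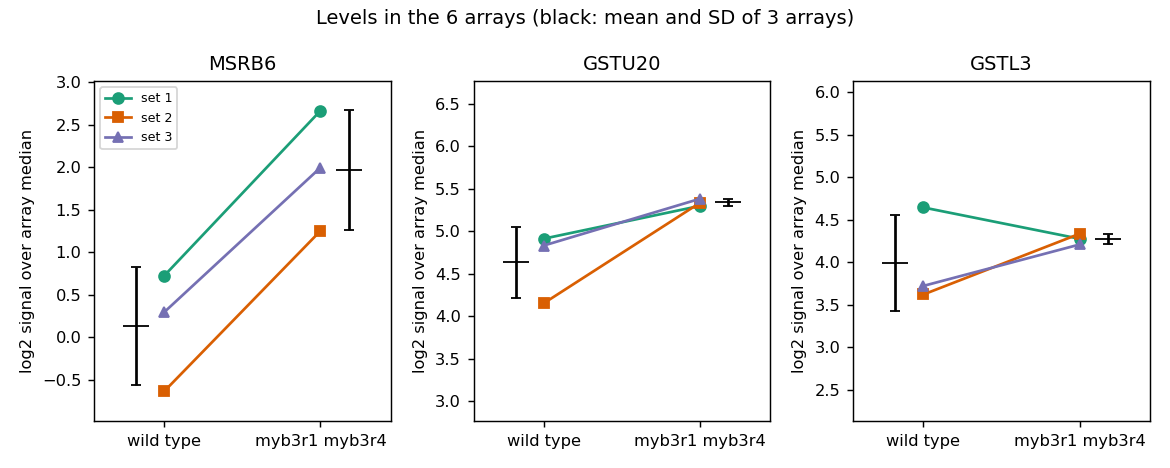
Level of MSRB6, GSTU20 and GSTL3 (y axis, log2 signal over the array median; each panel spans the same number of log2 units) in wild-type and myb3r1 myb3r4 seedlings. Coloured points are arrays, lines join the 2 arrays of a set, and black marks give the mean and SD of 3 arrays. The MSRB6 lines run in parallel with differences of 1.70 to 1.94, the GSTU20 lines meet near 5.3 in the mutant, and the GSTL3 line of set 1 runs downward.

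Of the 3 members, 2 had all mutant arrays above all wild-type arrays, MSRB6 and GSTU20. This held for 8.15% of tested probe sets. The same 2 were higher in all 3 sets, as were 26.3% of tested probe sets. Because the members were picked for this contrast, nothing is read from these counts.

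With the median division undone the differences were 1.72 for MSRB6, 0.58 for GSTU20 and 0.15 for GSTL3. Measured from the overall median difference they were 1.79, 0.65 and 0.22, before and after undoing the division. Quantile normalization gave 1.79, 0.48 and 0.058. On the deposited scale without set 2, GSTL3 was at -0.0055 from the overall median difference.

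**Figure D2:**
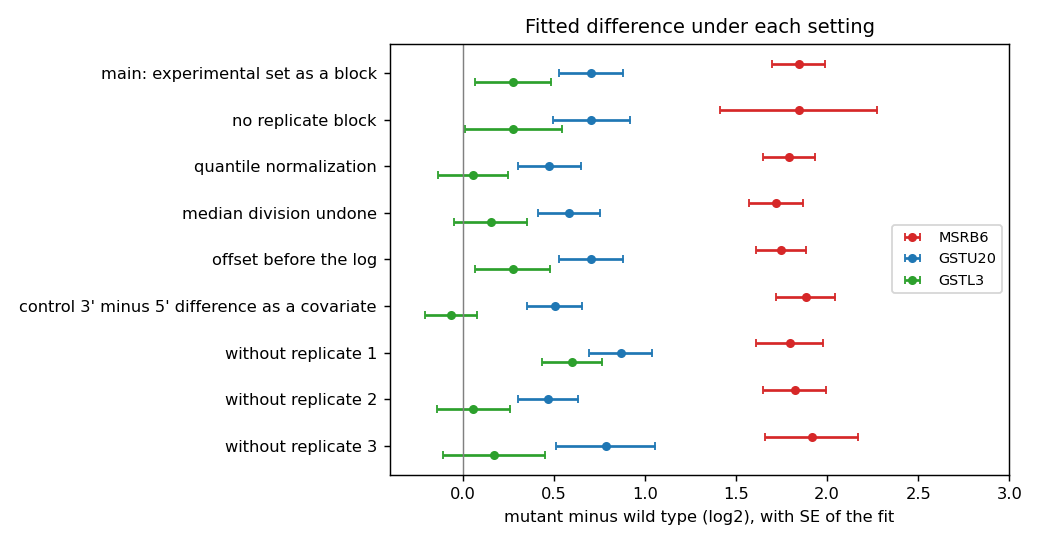
Fitted difference, mutant minus wild type (x axis, log2, bars are the SE of the fit), of the 3 genes under the main fit and the 8 alternatives that change the scaling, the covariates or the sets used (y axis). MSRB6 stays between 1.72 and 1.91, GSTU20 between 0.47 and 0.87, and GSTL3 between -0.064 and 0.60, on both sides of 0.

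The members also differed in how they varied within a genotype. The range over the 3 wild-type arrays was 1.36 for MSRB6, 0.76 for GSTU20 and 1.02 for GSTL3. Over the 3 mutant arrays it was 1.41, 0.084 and 0.13. Both glutathione transferase genes were thus far more even among mutant than among wild-type arrays, while MSRB6 was about as uneven in both.

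Only 3.06% of tested probe sets had a narrower mutant range than GSTU20, and 6.95% a narrower one than GSTL3. For MSRB6 97.1% did. These shares hold for the median-divided levels, were not taken under another scaling, and compare probe sets of all levels. A wider range in wild type than in the mutant was common, at 60.3% of tested probe sets, with median ranges of 0.50 (wild type) and 0.42 (mutant). The control 3' minus 5' signal also spread more in wild type, from 1.07 to 3.22, than in the mutant, from 1.50 to 2.44. Its part in the even mutant levels was not tested.

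**Figure D3:**
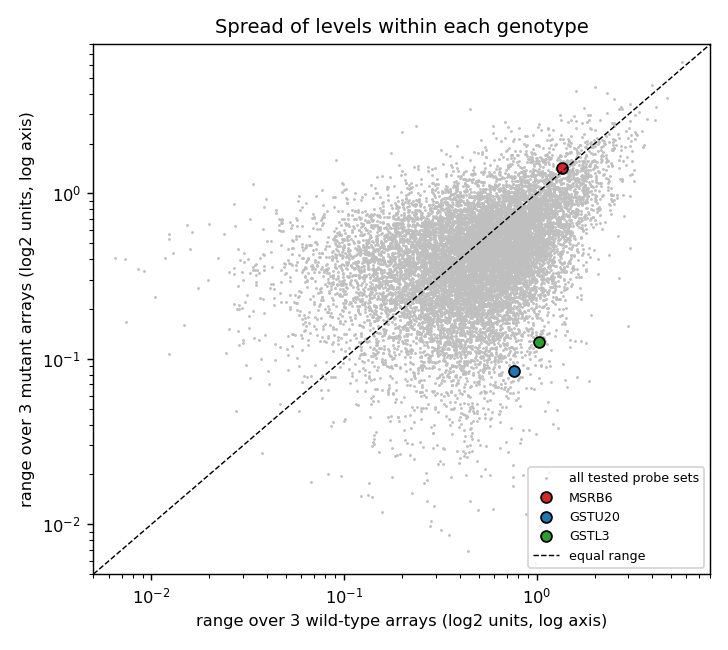
Range of the level over the 3 mutant arrays (y axis) against the range over the 3 wild-type arrays (x axis), both in log2 units on log axes, for all 13648 tested probe sets (grey) and the 3 genes (coloured). MSRB6 lies on the dashed line of equal ranges (1.36 and 1.41), and GSTU20 and GSTL3 lie far below it, at 0.084 and 0.13 in the mutant.

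Across the 6 arrays the levels of MSRB6 and GSTU20 correlated with a Pearson r of 0.90, those of MSRB6 and GSTL3 with 0.58 and those of GSTU20 and GSTL3 with 0.65. These arrays share their genotype and set, so the values only describe the patterns. The MSRB6 difference exceeded the GSTU20 difference by 1.56, 0.705 and 1.15 in sets 1 to 3. GSTU20 exceeded GSTL3 by 0.75, 0.47 and 0.063, so that in set 3 the 2 transferase genes differed from wild type by nearly the same amount.

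Among 7304 other tested probe sets of a single gene, the 5 most like MSRB6 over the 6 arrays were PSB27, RCA, AT3G56290, AT1G22440 and AT4G35110, with r from 0.982 to 0.991. Their differences were smaller than that of MSRB6, from 0.31 for PSB27 to 0.91 for AT4G35110. The 5 most like GSTU20 were AT5G18250, AT5G52760, AT3G55640, AT1G31440 and AT1G76070 (r from 0.987 to 0.989). AT5G52760 had differences of 1.11, 2.80 and 0.84 in sets 1 to 3, highest in set 2 as for GSTU20. Probe sets chosen for a like pattern over these arrays share much of that pattern by the choice itself.

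Most like GSTL3 were AT4G24830, AT2G42690, AT5G12890, AT3G23190 and AT4G01610, with r from 0.985 to 0.996. All 5 were lower in the mutant in set 1 and higher in sets 2 and 3, for example AT4G01610 at -0.45, 1.27 and 0.68. This course follows from their choice by likeness to GSTL3 over the same arrays. An r above 0.9 was reached by 113 probe sets with MSRB6, 153 with GSTU20 and 276 with GSTL3.

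The other methionine sulfoxide reductase genes, from a list of 14, gave 4 tested genes beside MSRB6: MSRB3, MSRB5, MSRB9 and MSRA5. Limma called 0 of the 4, and 1 had an unadjusted p under 0.05, beside 0.528% and 17.4% of all tested probe sets. MSRB9, another R-form reductase gene, came closest. It was at 2.37, 2.21 and 2.27 in wild type of sets 1 to 3 and at 3.04, 3.55 and 3.07 in the mutant. The mutant arrays thus lay above all wild-type arrays, as for 8.15% of tested probe sets, and wild type was even.

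MSRB9 had differences of 0.67, 1.34 and 0.79, and the fitted value of 0.93 (SE 0.17), or 1.91-fold, missed the threshold narrowly (limma, adjusted p = 0.0595). It passed under 3 of 11 alternatives: without set 1 (1.065, adjusted p = 0.00441), without set 3 (1.01, adjusted p = 0.0482) and with the control signal as covariate (0.77, adjusted p = 0.0440). Over all 11 the limma adjusted p of MSRB9 ran from 0.00441 to 0.618, the last without the set as a block. In those 3 fits 8.11%, 1.52% and 1.42% of all tested probe sets passed.

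MSRB5 and MSRB3 stand beside MSRB6 on chromosome 4, MSRB5 2 genes and MSRB3 5 genes before it in the order of the RefSeq table. MSRB5 differed by 0.31 (SE 0.14) with within-set values of 0.084, 0.38 and 0.47, and MSRB3, an enzyme of the endoplasmic reticulum, by 0.16 (SE 0.20) with values of -0.34, 0.65 and 0.16 (limma, adjusted p = 0.308 and 0.700). The MSRB3 difference was -0.12 with the control covariate. Neither neighbour came near the MSRB6 difference in any set. Related genes in tandem can share sequence, and how far a probe set reads its neighbour's transcript was not tested. MSRA5, the one tested gene of the S-form reductases, was the only one of the 4 with a fitted difference below 0, at -0.28 (SE 0.14, limma adjusted p = 0.340), with -0.41, -0.21 and -0.22 in sets 1 to 3.

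Of 54 glutathione transferase genes listed, 15 had a probe set of a single gene and 9 were tested, GSTU20, GSTL3 and 7 more, all 7 of the tau class. GSTL1 and GSTL2, the other genes of the lambda class, were not analysed here. Fitted differences of 6 of the 7 were above 0. Limma called 0 and 3 had an unadjusted p under 0.05, beside 0.528% and 17.4% of all tested probe sets. The list median was 0.35, beside 0.058 over all tested probe sets, where 58.3% were above 0. In sets 1 to 3 that median was 0.28, 0.64 and 0.16.

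GSTU27 and GSTU25 had the largest values among these 7. GSTU27 was at 3.50, 1.69 and 2.27 in wild type and 3.40, 2.99 and 2.79 in the mutant, a fitted difference of 0.57 (SE 0.24, limma adjusted p = 0.264). Like GSTL3 it was highest in the wild-type array of set 1 and more even among mutant arrays. GSTU25 was at 1.43, 0.57 and 1.22 in wild type and 1.72, 1.25 and 1.96 in the mutant, higher in each set, with a fitted difference of 0.57 (SE 0.15, limma adjusted p = 0.152). Without set 1 both passed, at 0.91 (adjusted p = 0.0152) and 0.71 (adjusted p = 0.0270), in a limma fit that called 8.11% of all tested probe sets.

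GSTU16 differed by 0.36 (SE 0.15), GSTU26 by 0.35 (SE 0.28) and GSTU18 by 0.15 (SE 0.14), and none of them passed. GSTU16 and GSTU18 were higher in each set, as were 26.3% of all tested probe sets. All their mutant arrays lay above all wild-type arrays, as for 8.15% of tested probe sets, by gaps of only 0.049 and 0.039. GSTU26 was lower in set 1 and higher in sets 2 and 3. GSTU26 turned to -0.13 with the control covariate.

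GSTU20 belongs to a run of tau class genes on chromosome 1, with GSTU21 next to it and GSTU22 and GSTU23 4 and 6 genes before it. GSTU22 had differences of 0.63, -0.37 and 0.032 in sets 1 to 3 and a fitted value of 0.099 (SE 0.20), which was -0.025 with the median division undone. GSTU23 had 0.15, -0.98 and -0.42 and a fitted value of -0.42 (SE 0.23, limma adjusted p = 0.361). Both were highest in set 1 and lowest in set 2, the reverse of GSTU20 and the same order as the control difference. GSTU21 was too dim to be tested, at -3.22 to -2.44 in the 6 arrays. There were 6 tested genes of other families within 6 genes of a member. Limma called 0 and 2 had an unadjusted p under 0.05, beside 0.528% and 17.4% of all tested probe sets. Their differences ran from -0.28 (AT5G02830) to 0.89 (AT1G78410). AT1G78410, 4 genes after GSTU20, had 0.37, 1.48 and 0.82 in sets 1 to 3, lowest in set 1 and highest in set 2 as GSTU20 was.

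GSTU21 was one of 6 listed transferase genes too dim for the test. Of these GSTF4, of the phi class, was at -1.50, -1.82 and -2.10 in wild type and -1.06, -1.31 and -1.29 in the mutant, higher in each set. GSTF13, of the same class, was lower in each set, with a mean difference of -1.07. MAS5 signals this dim are noisy on a log scale.

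Genes of glutathione recycling, thioredoxin and ascorbate chemistry gave 6 tested genes of 40 listed, with 5 differences above 0 and a median of 0.25. Limma called 0 and 2 had an unadjusted p under 0.05, beside 0.528% and 17.4% of all tested probe sets. MDAR2, a monodehydroascorbate reductase gene, differed by 0.54 (SE 0.18), and GR1, a glutathione reductase gene of the cytosol, by 0.49 (SE 0.17), both higher in each set (limma, adjusted p = 0.200 and 0.208). SAPX, the stromal ascorbate peroxidase gene, differed by 0.37 (SE 0.18). GR2, the glutathione reductase gene of plastids and mitochondria, had -0.16, -0.50 and -0.0050 in sets 1 to 3 and a fitted difference of -0.22 (SE 0.15). NTRC and TAPX, of the chloroplast, differed by 0.14 and 0.13, and NTRC was at -0.045 with quantile normalization.

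GR1, SAPX and MDAR2 had the order of GSTU20 and GSTL3 in their differences over the sets. Differences in sets 1 to 3 were 0.22, 0.90 and 0.35 for GR1 and -0.047, 0.81 and 0.33 for SAPX. For MDAR2 they were 0.091, 0.94 and 0.61. Each was lowest in set 1 and highest in set 2, as GSTU20 and GSTL3 were. The other tested genes of this list, NTRC, TAPX and GR2, were instead lowest in set 2, at 0.031, -0.12 and -0.50. Set 2 held the highest difference for 36.7% of all tested probe sets, and the share that also had the lowest in set 1 was not counted. Without set 1 GR1 and MDAR2 passed (limma, adjusted p = 0.0484 and 0.0148), as did 8.11% of all tested probe sets.

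Aliphatic glucosinolate synthesis, the pathway GSTU20 is linked to, had 2 tested genes of 22 listed. BCAT4, the aminotransferase gene that opens methionine chain elongation, was at 4.95, 4.21 and 4.57 in wild type and 5.03, 5.04 and 5.17 in the mutant. As for GSTU20, the mutant arrays stood close together above all wild-type arrays, and the wild-type array of set 2 was the lowest. The gap between the genotypes was 0.082, and 8.15% of tested probe sets had all mutant arrays above all wild-type arrays. Its fitted difference was 0.50 (SE 0.17, limma adjusted p = 0.205), and without set 1, where 8.11% of all tested probe sets passed, it was 0.71 (limma, adjusted p = 0.0138). BCAT4 and GSTU20 correlated with an r of 0.96 over the 6 arrays, the highest among the 19 tested related genes, whose median was 0.63. The other tested gene, UGT74C1, was at 0.68. Over all tested probe sets the median r with GSTU20 was 0.082. Among 7304 other tested probe sets of a single gene, 153 had an r above 0.9 with GSTU20. These arrays share genotype and set, so the values only describe the patterns. UGT74C1, a glucosyltransferase gene of the same pathway, differed by 0.15 (SE 0.17), with -0.27, 0.34 and 0.37 in the sets and -0.0050 with quantile normalization. Limma called 0 of the 2, and 1, BCAT4, had an unadjusted p under 0.05, beside 0.528% and 17.4% of all tested probe sets.

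**Figure D4:**
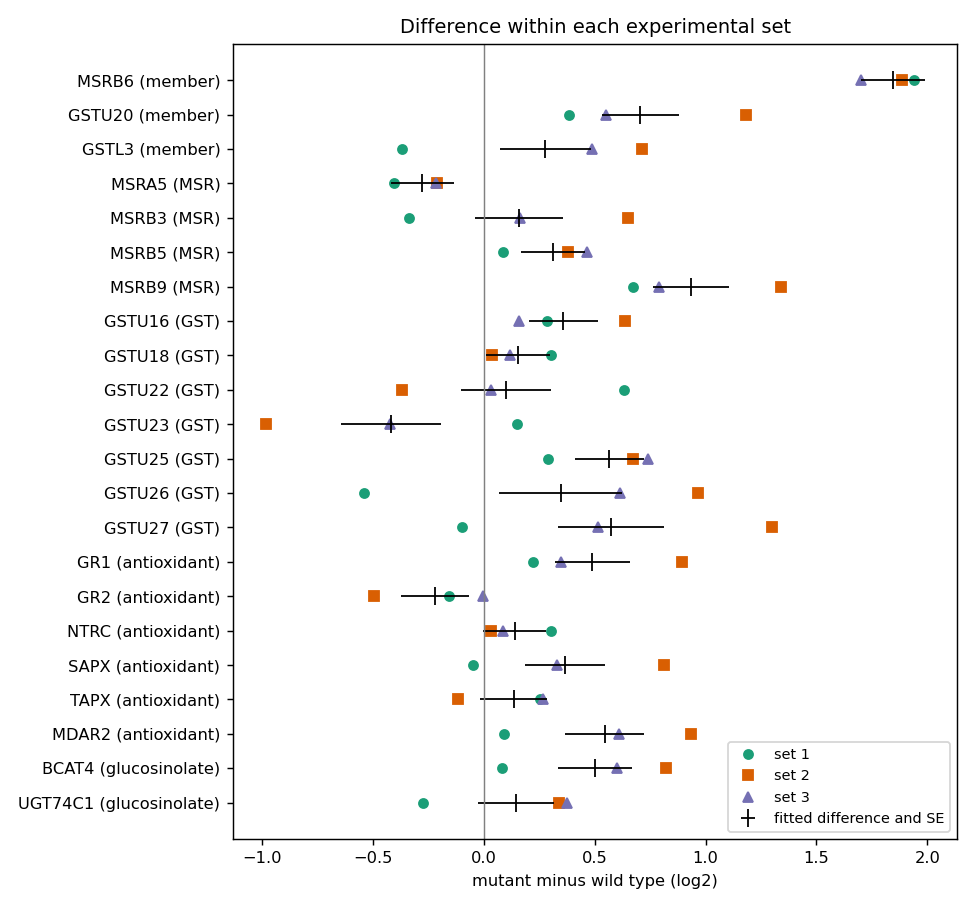
Difference, mutant minus wild type (x axis, log2), within set 1 (circles), set 2 (squares) and set 3 (triangles) for the 3 genes and the 19 tested related genes (y axis), with the fitted difference and its SE in black. MSRB6 has its 3 points together at 1.70 to 1.94, whereas GSTU20, GSTL3 and most related genes have their points spread. Set 2 is highest for 10 of the 19, beside 36.7% of all tested probe sets.

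Over the 4 lists together, 16 of 19 tested genes had a fitted difference above 0, and the median was 0.31. The median in sets 1 to 3 was 0.091, 0.64 and 0.33, where the control 3' minus 5' difference was 0.44, -1.12 and -0.78. The share above 0 among all tested probe sets was 58.3%. With the control signal as covariate 13 of 19 were above 0, beside 60.5% of all tested probe sets. The number was 14 after quantile normalization, beside 48.1%, and 15 when the median division was undone, beside 40.5%. At an unadjusted p under 0.05 there were 7 of 19, all higher. Among all 13648 tested probe sets there were 2374 in either direction (17.4%), of which 1717 were higher. The lists were chosen with earlier results of these arrays known, and 108 of the 130 genes in them were not tested, so the counts do not describe the pathways as wholes.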

How the data were processed

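Per the submitters' processing notes, the probe sets were summarised with MAS5 from perfect-match and mismatch probes; no version or scaling target is given in these sources. Deposited values are log2 signals, with a median of 0 in each column, so the signals had been divided by each array's median, a step known only from the values. A single stand-in for a signal of 0 was replaced by the lowest other value of that array. Control probe sets (64) were left out of the tests. Genes were named through GEO's platform annotation, updated by gene identifier in the RefSeq table of assembly TAIR10.1. Of 22746 probe sets 13513 had a single gene, 503 had several and 8730 had none, and that table held the gene of 13436. Neighbours are given by gene order, without coordinates.

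The brightest 60% of probe sets by mean over all arrays were fitted with limma 3.58.1 in R 4.3.3 (lmFit and trended eBayes, with 2 residual plus 6.79 prior degrees of freedom). The experimental set was a block, since the labels name it for each array. Within a set, the deviations of both arrays from the means of their genotypes correlated by 0.67, 0.28 and 0.62 in sets 1 to 3, and the wild type of set 2 with the mutant of set 3 by 0.37. P-values were adjusted by Benjamini-Hochberg over all tested probe sets. The script was tested on simulated data with known changes. Alternatives were no block, no filter, the brightest 40%, quantile normalization, the median division undone, an offset of 0.1 array medians before the log, the control 3' minus 5' signal (mean of 6 probe set pairs) as a covariate, each set left out and probe sets averaged per gene. With the covariate, or with a set left out, 1 residual degree of freedom remains.

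The members and lists were chosen with earlier results of these data known. Named are the members, MYB3R1 and MYB3R4, list genes past the threshold, in each list the 3 largest differences each way and the 2 brightest, listed relatives and neighbours of the members, and the 5 probe sets most like each member by Pearson correlation. GSTF4, GSTF13, AT5G02830 and AT1G78410 were named after their values were seen.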

Additional observations from a re-analysis of the deposited data

How the results depend on the processing

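Of 129 comparisons of a result with an alternative, 114 stayed within the set limits (1 SD of the within-set values for a difference or list median, 1.5 times for a count). Some of the 114 could not move. A change of filter leaves the fitted difference of a member as it is. Dropping the block changes no difference, since each set holds 1 array of each genotype. Averaging per gene changed no list gene, as none had several tested probe sets. The number of called probe sets, 72, was 1 with no replicate block, 14 without a filter on dim probe sets, 43 among the brightest 40% and 194 with the control 3' minus 5' difference as a covariate. Leaving out 1 set each gave 107 to 1107. GSTL3 reversed, to -0.064, with that covariate, and leaving out 1 set each gave it 0.059 to 0.60. Whether the control difference causes the GSTL3 value was not tested. The methionine sulfoxide reductase list, with 0 called, had 1 called with the covariate and 0 to 1 when 1 set was left out, MSRB9 in each case. Leaving out 1 set gave 0 to 2 called transferase genes, 0 to 2 antioxidant genes and 0 to 1 glucosinolate genes, the highest counts without set 1, where 1107 of all probe sets passed. The transferase median was 0.099 without the filter, which adds the dim genes, and the antioxidant median was 0.11 with quantile normalization. No replicate block left all differences and list medians as they were and called 0 genes of the 4 lists. The covariate fit and those without a set have 1 residual degree of freedom.

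Limits are the 3 arrays per genotype, the absence of detection calls in the values used here, dim signals, and the many listed genes with no probe set of a single gene. The control difference had the reverse order over the sets to the differences of GSTU20 and GSTL3. How many of all tested probe sets had the order of these genes was not counted, and the part of the control difference was not tested.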
